A study of Homo sapiens with 6 samples.

Results

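The 37 genes described here encode the receptors and ligands of 3 guidance systems: the Eph receptors with their ephrins, the Slits with the Robos, and the netrins with their receptors. They were taken by gene symbol from a fixed list of family members, and all 37 were among the 46427 genes of the count table. Of these, 26 had enough counts to be tested and 11 did not. RNA had been sequenced from 6 libraries of Hs578T, a triple-negative breast cancer cell line. A retroviral pSUPER vector with puromycin selection had been used to make both lines, so that all 6 libraries came from transduced and selected cells grown in DMEM with serum. In 3 libraries the cells carried the control hairpin (shCTRL), and in 3 they carried a hairpin against CCN3 (shCCN3), a secreted matricellular protein. Only 1 hairpin against CCN3 was sequenced, so an effect of knockdown and an effect of that hairpin or that selected line cannot be told apart. The replicates of each line are given as independent biological replicates.

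The libraries held between 56159110 and 68393177 counts, and 3 counts in a library corresponded to 0.0435 to 0.054 CPM (counts scaled to library totals, corrected by edgeR's TMM factors), and this floor covers counting error only. CCN3 itself was at 101 ± 2.43 CPM in shCTRL cells and at 47.0 ± 0.469 CPM in shCCN3 cells (SD, n = 3 each), so that transcript remained in the knockdown. VIM, CD44 and SPARC, markers of the mesenchymal phenotype of this line, were each at 769 CPM or above in every library, while CDH1, EPCAM and ESR1 were at or below 0.156 CPM in every library. PGR and ERBB2 were counted, with means of 2.86 and 77.9 CPM in shCTRL cells and of 3.80 and 78.2 CPM in shCCN3 cells. Within each group, differences between libraries exceeded counting noise (chi-square per degree of freedom 7.04 to 45.5), and the pairs with shCCN3 replicate 2 were the highest of these, at 37.3 and 45.5.

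Eph receptors are receptor tyrosine kinases that are activated by ephrins on the surface of a neighbouring cell. A-type ephrins are held by a lipid anchor and mostly bind EphA receptors, B-type ephrins cross the membrane and mostly bind EphB receptors, and both sides of the contact can signal. Slits are large secreted proteins that repel cells and axons through Robo receptors. Netrins are laminin-related secreted proteins that attract through DCC and NEO1 and repel through the UNC5 receptors. All 3 systems were first known from axon guidance and also act on adhesion, migration and vessel growth, and several Ephs are abundant in breast cancer cells.

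In shCCN3 cells, 18 of the 37 genes, all among the 26 tested, passed an adjusted p of 0.05 in edgeR's quasi-likelihood test, 13 of them higher and 5 lower than in shCTRL cells. Of all 17419 genes tested, 33.4% passed, 16.2% higher and 17.3% lower. EPHA6, EPHB1, EPHA5, ROBO4, UNC5B, SLIT2 and SLIT3 were higher by at least 2-fold, and EPHB6, EPHB3 and ROBO2 were lower by at least 2-fold. These are 10 of the 26 genes tested, beside 8.1% of all genes tested (4.17% higher and 3.93% lower). The 3 libraries of one group lay wholly above or below those of the other for 18 of the 26 genes tested, beside 46.3% of all genes tested. Over the 26 genes tested the median log2 fold change was 0.29 and the median of its size was 0.63, beside 0.01 and 0.24 over all genes tested. These summaries describe the list, which was chosen with earlier results of these data known. A gene such as EPHA6 also entered the test only through the group in which it was counted. A level here is RNA of the whole culture, so fewer cells with a transcript and less transcript per cell cannot be told apart.

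**Figure D1:**
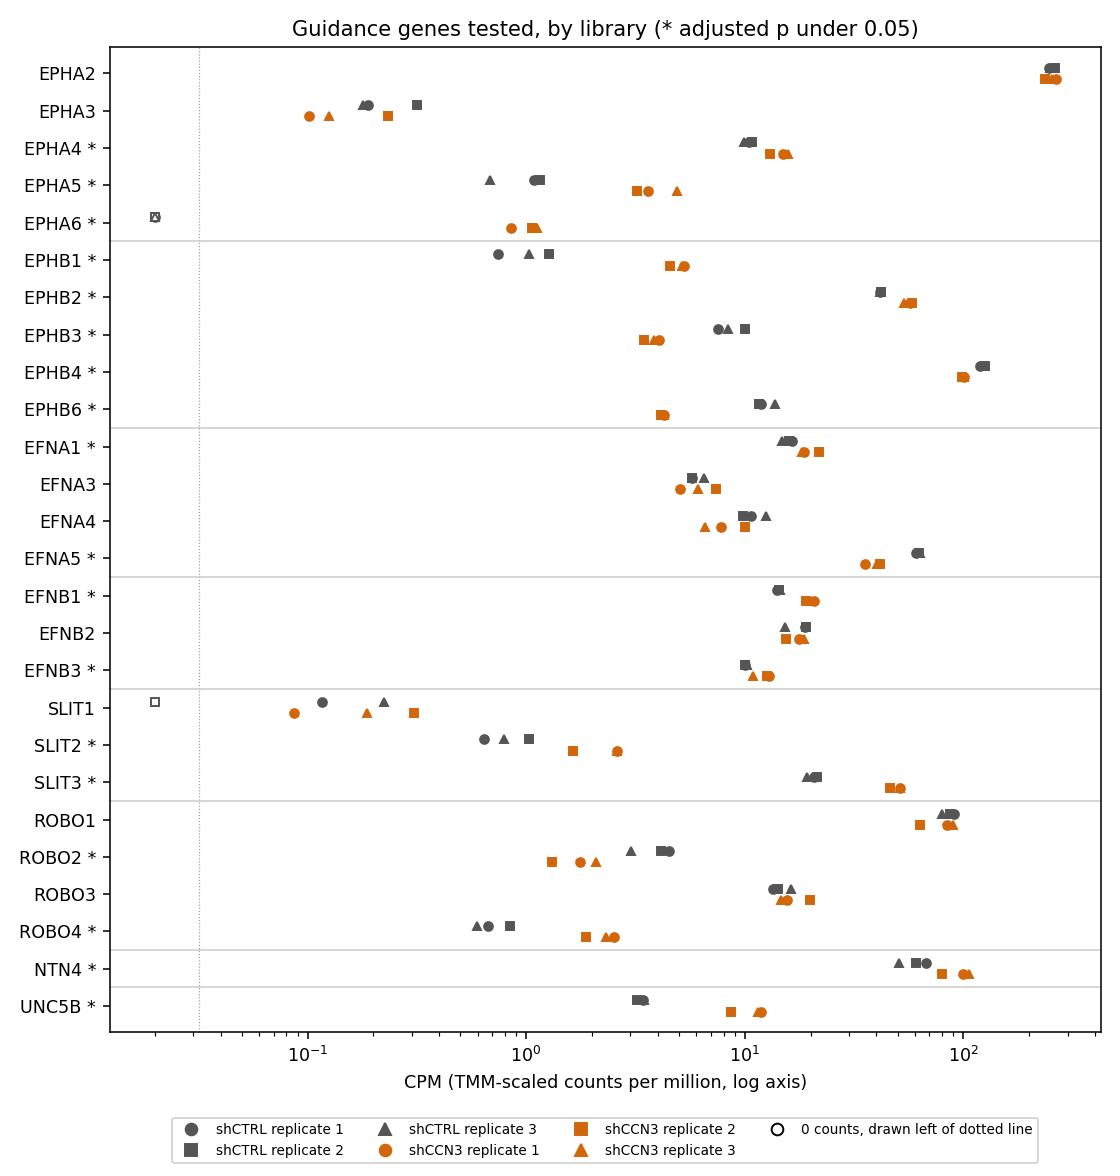
Levels of the 26 guidance genes tested, in CPM on a log axis, with 1 point for each library (grey shCTRL, orange shCCN3, symbols for replicates) and an asterisk for an adjusted p under 0.05. EPHA6 has 3 open points for 0 counts in shCTRL and lies at 0.856 to 1.13 CPM in shCCN3, while the points of EPHA2 near 250 CPM overlap.

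**Figure D2:**
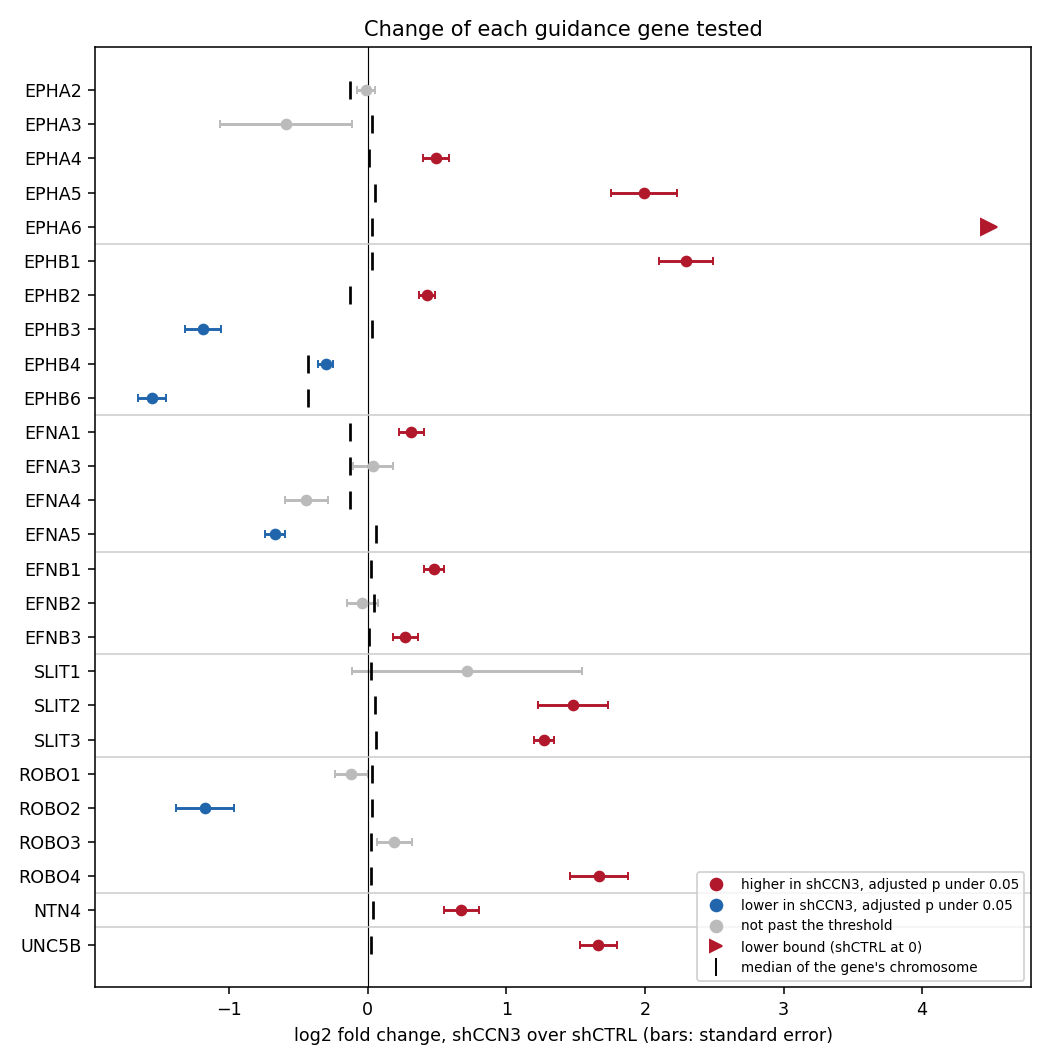
The log2 fold change of each gene tested, shCCN3 over shCTRL, with its standard error as a bar and the median of all tested genes on the same chromosome as a black tick. The arrowhead of EPHA6 is a lower bound of 22.3-fold, EPHB1 has the largest measured rise at 2.30, and EPHB6 lies left of the chromosome 7 tick at -0.43 while EPHB4 lies right of it.

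Among the 9 EphA receptors, EPHA4, EPHA5 and EPHA6 rose, and the most abundant one, EPHA2, gave no detectable difference. EPHA2 (Gene ID 1969), a receptor often abundant in epithelial tumours, was at 247, 263 and 250 CPM in the shCTRL libraries and at 266, 235 and 253 CPM in the shCCN3 libraries. The groups overlapped, and its log2 fold change was -0.01 with a 95% interval from -0.15 to 0.13 (adjusted p = 0.916, edgeR). EPHA2 thus carried 97.6% of the summed EphA level in shCTRL cells and 96.0% in shCCN3 cells, counted in CPM per kilobase of exon, the scale used here whenever genes are compared with each other. The EphA sum itself was 62.4 ± 2.02 and 63.0 ± 3.79 CPM per kilobase (SD, n = 3 each).

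EPHA4 (Gene ID 2043), which binds ephrins of both types, had 10.5, 10.7 and 9.91 CPM in shCTRL and 15.02, 13.1 and 15.7 CPM in shCCN3. All 3 shCCN3 libraries were above all 3 shCTRL libraries, with a log2 fold change of 0.49 (SE, standard error, 0.093, adjusted p = 0.00304, edgeR). EPHA4 shares 353 of its 7554 exon bases with an antisense gene in the annotation, which was not analysed here. EPHA5 (Gene ID 2044, chr4:65319567-65670489), a receptor best known from the nervous system, had 1.09, 1.16 and 0.685 CPM in shCTRL and 3.63, 3.20 and 4.89 CPM in shCCN3. It rose 3.99-fold (log2 fold change 1.997, SE 0.239, adjusted p = 0.000217, edgeR), again with no overlap. EPHA5 shares 535 of its 9833 exon bases with EPHA5-AS1 on the other strand, which had 0, 3 and 3 counts in shCTRL and 17, 11 and 21 counts in shCCN3. Use of the strand in counting is not stated, so reads in the shared bases cannot be told apart between these genes.

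EPHA6 (Gene ID 285220, chr3:96814594-97761532), also a mainly neural receptor, had 0 counts in each shCTRL library and 59, 59 and 72 counts in the shCCN3 libraries. Its level in shCCN3 cells was 1.01 ± 0.141 CPM (SD, n = 3). Against 3 counts in each shCTRL library, the limit that a count of 0 allows, this is at least 22.3-fold higher. The 3 shCCN3 libraries were close to each other, and the gene still made up only 0.258% of the EphA sum there. RefSeq places transcript starts of EPHA6 625 kb apart, and gene counts do not separate transcripts from each. Both windows are shown, from 250 bases before to 50 bases after the start on GRCh38.p14, since the counted transcripts could begin at either: start 1 at chr3:96814344-96814643 and start 2 at chr3:97439357-97439656, both on the plus strand. Capitals mark the GC box, GGGCGG on either strand, the letters bound by Sp1-type factors.
EPHA6 start 1: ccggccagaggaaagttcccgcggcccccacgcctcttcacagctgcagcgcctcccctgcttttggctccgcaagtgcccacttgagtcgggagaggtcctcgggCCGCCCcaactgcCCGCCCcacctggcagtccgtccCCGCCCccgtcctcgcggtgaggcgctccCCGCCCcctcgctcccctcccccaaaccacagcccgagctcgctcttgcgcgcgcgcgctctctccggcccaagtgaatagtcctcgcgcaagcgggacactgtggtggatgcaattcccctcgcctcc
EPHA6 start 2: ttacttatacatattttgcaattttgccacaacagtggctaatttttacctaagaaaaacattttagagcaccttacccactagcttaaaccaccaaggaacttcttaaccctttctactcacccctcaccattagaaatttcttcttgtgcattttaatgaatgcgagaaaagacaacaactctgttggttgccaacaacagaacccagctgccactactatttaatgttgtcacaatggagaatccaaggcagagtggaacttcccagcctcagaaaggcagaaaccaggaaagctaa
Start 1 is a GC-rich window, with 71.0% G and C, 30 CpG and 4 GC boxes. Start 2 has 39.7% G and C, 1 CpG and no GC box.

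EPHA3 was counted at a low level, at 0.229 ± 0.0777 CPM in shCTRL and 0.154 ± 0.0706 CPM in shCCN3 (SD, n = 3 each). Its groups overlapped, and the interval of its log2 fold change ran from -1.66 to 0.48. EPHA1 had 1 count in each of the 6 libraries, and EPHA7, EPHA8 and EPHA10 had none.

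All 5 EphB receptors changed, EPHB1 and EPHB2 upwards and EPHB3, EPHB4 and EPHB6 downwards. EPHB1 (Gene ID 2047, chr3:134795260-135260467) had 0.742, 1.27 and 1.03 CPM in shCTRL and 5.27, 4.54 and 5.16 CPM in shCCN3. It rose 4.92-fold (log2 fold change 2.30, SE 0.194, adjusted p = 2.72e-05, edgeR), the largest ratio among the guidance genes that were counted in both groups. EPHB1 shares 64 exon bases with KY on the other strand, which had 553 to 594 counts in shCTRL and 577 to 706 in shCCN3. EPHB2 (Gene ID 2048), a kinase known from the sorting of intestinal crypt cells, had 41.5, 42.2 and 41.5 CPM in shCTRL and 56.8, 58.0 and 53.7 CPM in shCCN3. The groups were far apart against their spread, and the log2 fold change was 0.43 (SE 0.0596, adjusted p = 0.00055, edgeR).

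EPHB3 (Gene ID 2049, chr3:184561785-184582408), a close relative of EPHB2 with which it acts in the crypt, had 7.58, 9.98 and 8.34 CPM in shCTRL and 4.06, 3.47 and 3.85 CPM in shCCN3. It fell by 1.18 on the log2 scale (SE 0.129, adjusted p = 0.000126, edgeR), the opposite direction to EPHB2. EPHB6 (Gene ID 2051, chr7:142855076-142871093), whose kinase domain lacks catalytic activity, had 11.8, 11.6 and 13.8 CPM in shCTRL and 4.28, 4.12 and 4.25 CPM in shCCN3. It fell by 1.56 on the log2 scale (SE 0.101, adjusted p = 5.58e-06, edgeR). The shCCN3 libraries agreed closely, with an SD of 0.0849 CPM. EPHB4 (Gene ID 2050, chr7:100802565-100827523), the partner of ephrin-B2 in vein development, had 119, 126 and 124 CPM in shCTRL and 101, 98.4 and 100.2 CPM in shCCN3. Its log2 fold change was -0.30 (SE 0.0542, adjusted p = 0.00242, edgeR).

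EPHB4 and EPHB6 lie on chromosome 7, and the median change of its 821 tested genes was -0.43 on the log2 scale. For the chromosomes of the other guidance genes tested this median lay between -0.13 and 0.06. EPHB4 was 0.13 above its chromosome's median on the log2 scale, and its 20 nearest tested neighbours had a median of -0.50. EPHB6 was at -1.13 against the chromosome's median, and its 20 neighbours had a median of -0.20. EPHB4 was thus lower by less than its neighbourhood and EPHB6 by more, and the part of the chromosome in either change was not tested. EPHB4 also shares 69 exon bases with SLC12A9 on the other strand, which had 3177 to 3743 counts in shCTRL and 2237 to 2238 in shCCN3.

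The start regions of the EphB genes with the largest changes are printed because the members of 1 family moved in opposite directions. They come from RefSeq on GRCh38.p14, EPHB1 at chr3:134795010-134795309, EPHB3 at chr3:184561535-184561834 and EPHB6 at chr7:142862506-142862805, all on the plus strand, with GC boxes in capitals as above.
EPHB1: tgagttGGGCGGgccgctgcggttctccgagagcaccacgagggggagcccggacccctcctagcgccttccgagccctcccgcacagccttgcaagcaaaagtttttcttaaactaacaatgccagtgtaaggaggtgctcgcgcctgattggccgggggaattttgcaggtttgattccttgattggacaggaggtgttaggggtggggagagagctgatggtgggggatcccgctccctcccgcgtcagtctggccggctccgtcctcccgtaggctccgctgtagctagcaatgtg
EPHB3: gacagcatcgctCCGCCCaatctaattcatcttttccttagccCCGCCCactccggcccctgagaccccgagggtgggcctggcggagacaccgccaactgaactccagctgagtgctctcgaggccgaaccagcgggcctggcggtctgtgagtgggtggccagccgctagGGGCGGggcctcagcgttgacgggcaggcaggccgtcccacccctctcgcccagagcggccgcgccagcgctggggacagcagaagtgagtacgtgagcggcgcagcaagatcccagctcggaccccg
EPHB6: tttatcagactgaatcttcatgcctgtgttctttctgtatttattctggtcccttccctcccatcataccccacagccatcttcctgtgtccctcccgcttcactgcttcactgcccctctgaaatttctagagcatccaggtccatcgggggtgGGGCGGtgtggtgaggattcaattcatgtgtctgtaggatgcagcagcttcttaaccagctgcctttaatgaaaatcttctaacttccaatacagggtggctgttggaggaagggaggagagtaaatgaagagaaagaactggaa
The rising EPHB1 and the falling EPHB3 both have CpG-rich windows, with 19 and 26 CpG and with 1 and 3 GC boxes. The EPHB6 window, which lies inside the outer limits of its gene, holds 3 CpG and 1 GC box. For a count of such letters 1 window was used for each gene, the first listed, so further starts were not searched. A GC box was found in 26 of the 32 guidance genes with a RefSeq window, beside 44.6% of 27305 windows of all genes. The median window of the 32 genes had 65.8% G and C and 22 CpG, beside 58.3% and 14 in all windows. The AP-1 letters TGANTCA, searched on both strands, were in none of the 32 windows, beside 7.76% of all windows. The TEAD letters GGAATG were in 3 (EPHA2, NTN4 and ROBO3), beside 14.0%. The E-box CACGTG was in EPHA8 alone, beside 7.43%, and TATAAA in EFNB2 alone, beside 12.0%.

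The EphB sum was 26.8 ± 0.869 CPM per kilobase in shCTRL and 22.4 ± 0.308 in shCCN3 (SD, n = 3 each), and its make-up differed. EPHB4, which lies with EPHB6 on chromosome 7 (median log2 fold change -0.43), held 71.3% and 69.4% of it. The part of that chromosome in the lower sum was not tested. The share of EPHB2 was 12.4% in shCTRL and 20.1% in shCCN3, and that of EPHB1 was 0.541% and 3.21%. EPHB6 had 8.68% and 3.54%, and EPHB3 had 7.09% and 3.74%. In each group the 3 libraries had nearly the same make-up, and the shares of the groups did not overlap for any of the 5 receptors. The 5 shares make up the whole sum of a library, so they depend on each other and are not separate results.

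**Figure D3:**
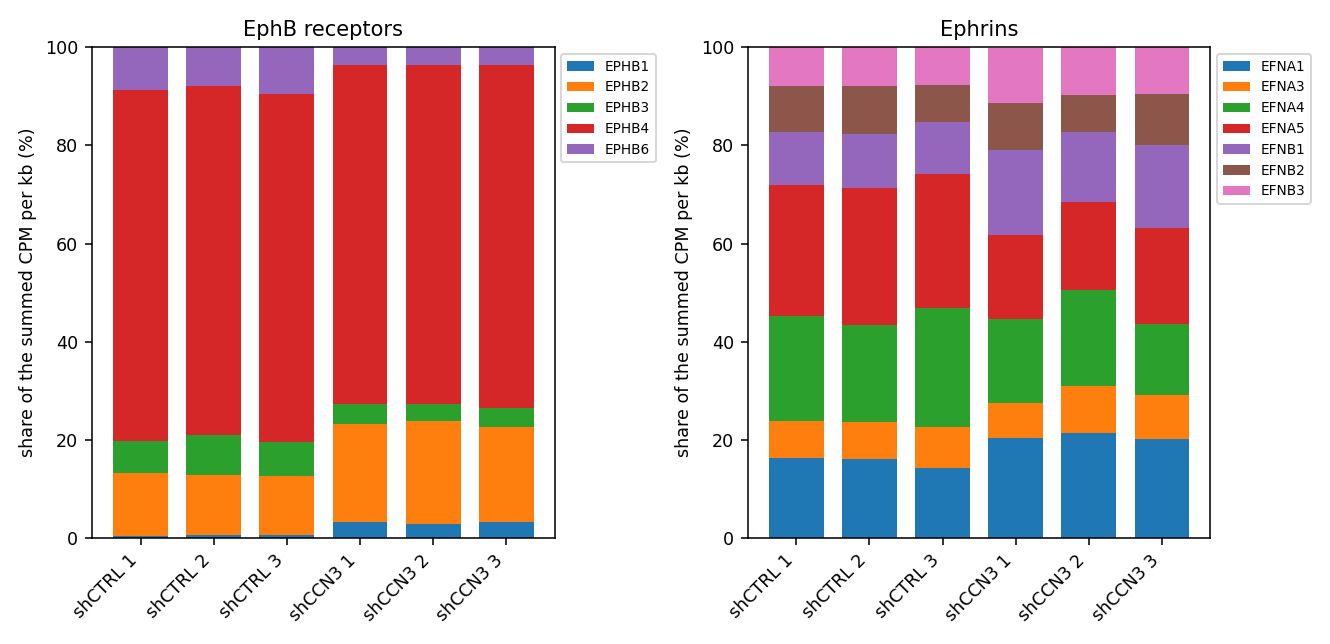
Share of each gene in the summed level (CPM per kilobase, in percent) of the EphB receptors, left, and of the ephrins, right, with 1 bar for each library. EFNA2, which had counts in 1 library, is not drawn. The EPHB2 and EPHB1 segments are taller and the EPHB6 and EPHB3 segments shorter in the 3 shCCN3 bars, and among ephrins the EFNA5 segment is shorter and the EFNB1 and EFNA1 segments are taller.

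Among the ephrins, EFNA5 fell, and EFNB1, EFNA1 and EFNB3 rose. EFNA5 (Gene ID 1946, chr5:107376894-107670937), the most abundant ephrin per kilobase in shCTRL cells, had 60.7, 62.4 and 63.5 CPM in shCTRL and 35.5, 41.7 and 40.3 CPM in shCCN3. It fell by 0.67 on the log2 scale (SE 0.0733, adjusted p = 0.00013, edgeR), with a wide gap between the groups. Its share of the summed ephrin level was 27.3% in shCTRL and 18.3% in shCCN3. EFNA1 (Gene ID 1942), the main ligand of EPHA2, had 16.5, 16.0 and 14.8 CPM in shCTRL and 18.7, 22.0 and 18.4 CPM in shCCN3. Its log2 fold change was 0.32 (SE 0.0917, adjusted p = 0.0258, edgeR). Without shCTRL replicate 2 the adjusted p was 0.0783 and without shCTRL replicate 3 it was 0.0928. Per kilobase, EFNA1 was at 6.22 ± 0.338 CPM in shCTRL, below EFNA5 at 10.9 ± 0.247, and at 7.74 ± 0.787 in shCCN3, where EFNA5 was at 6.87 ± 0.573 and the libraries of the pair overlapped.

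EFNA4 had 10.7, 9.79 and 12.5 CPM in shCTRL and 7.78, 10.0 and 6.55 CPM in shCCN3. The groups overlapped through shCCN3 replicate 2, and the log2 fold change of -0.44 (interval -0.80 to -0.09) had an adjusted p of 0.0585 in edgeR. Without that library the adjusted p was 0.00312, and with each other library left out in turn it was 0.0736 to 0.189 (edgeR). EFNA3 was at 5.99 ± 0.454 and 6.18 ± 1.18 CPM (SD, n = 3 each), with an interval of the log2 fold change from -0.29 to 0.37. Both genes share exon bases with a read-through gene in the annotation, 853 bases for EFNA3 and 189 for EFNA4, so their counts depend on how such reads were assigned. EFNA2 had 4 counts in 1 shCCN3 library and 0 in the others.

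EFNB1 (Gene ID 1947), a transmembrane ligand known from boundary formation in the face and skull, had 14.1, 14.4 and 14.5 CPM in shCTRL and 20.7, 19.0 and 20.03 CPM in shCCN3. It rose by a log2 fold change of 0.48 (SE 0.0718, adjusted p = 0.000877, edgeR), and its share of the ephrin sum was 10.8% and 16.1%. EFNB3 had 10.0, 10.0 and 10.2 CPM in shCTRL and 12.9, 12.7 and 10.9 CPM in shCCN3. The groups did not overlap, but the log2 fold change of 0.27 passed narrowly (SE 0.0903, adjusted p = 0.0444, edgeR) and did so in only 4 of 13 alternative fits. Leaving out a library in turn, the adjusted p of EFNB3 passed only without shCCN3 replicate 3 (0.0217) and reached 0.156 without shCCN3 replicate 1. EFNB2, the arterial ephrin and a ligand of EPHB4, was at 17.7 ± 2.14 and 17.3 ± 1.69 CPM with overlapping groups, and the interval of its log2 fold change was -0.29 to 0.21. It shares 1313 of its 5019 exon bases with an antisense gene in the annotation, which was not analysed here. The summed ephrin level was 39.96 CPM per kilobase in shCTRL and 37.5 in shCCN3, and the summed Eph level was 89.3 and 85.3.

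SLIT2 and SLIT3 both rose. SLIT3 (Gene ID 6586, chr5:168661740-169301139) had 20.7, 21.5 and 19.3 CPM in shCTRL and 51.2, 46.2 and 51.2 CPM in shCCN3. It rose 2.41-fold (log2 fold change 1.27, SE 0.0741, adjusted p = 3.07e-06, edgeR), and it held 93.7% and 93.2% of the summed Slit level per kilobase. Genes on the other strand share 334, 216 and 113 of the 14260 exon bases of SLIT3. SLIT2 (Gene ID 9353, chr4:20251905-20620561), a ligand lost by promoter methylation in many breast tumours, was counted at a lower level, with 0.640, 1.03 and 0.790 CPM in shCTRL and 2.61, 1.64 and 2.61 CPM in shCCN3. The groups did not overlap, and it rose 2.79-fold (log2 fold change 1.48, SE 0.253, adjusted p = 0.0018, edgeR). SLIT1 was at 0.113 ± 0.112 and 0.194 ± 0.110 CPM (SD, n = 3 each), near the level of 3 counts, and a difference was not detectable at this depth (interval of the log2 fold change -1.16 to 2.59).

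The Robo receptors did not move together: ROBO4 rose, ROBO2 fell, and ROBO1 and ROBO3 did not pass the test. ROBO1 (Gene ID 6091), the main Slit receptor of these cells with 76.5% of the summed Robo level in shCTRL and 71.7% in shCCN3, had 90.8, 86.8 and 79.5 CPM in shCTRL and 84.6, 63.1 and 89.3 CPM in shCCN3. Replicate 2 was the low one of the shCCN3 libraries, and the interval of the log2 fold change was -0.39 to 0.15 (adjusted p = 0.5, edgeR). ROBO2 (Gene ID 6092, chr3:75906675-77649964), a receptor of neurons and the developing kidney, had 4.497, 4.14 and 3.02 CPM in shCTRL and 1.77, 1.31 and 2.08 CPM in shCCN3. It fell by 1.17 on the log2 scale (SE 0.210, adjusted p = 0.00234, edgeR), and the groups did not overlap. ROBO3, which in neurons counteracts Slit repulsion, was at 14.6 ± 1.46 and 16.8 ± 2.81 CPM with an interval of -0.09 to 0.48.

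ROBO4 (Gene ID 54538, chr11:124883691-124897865), best known as the Robo of endothelial cells, had 0.669, 0.844 and 0.596 CPM in shCTRL and 2.51, 1.87 and 2.31 CPM in shCCN3. It rose 3.18-fold (log2 fold change 1.67, SE 0.208, adjusted p = 0.000277, edgeR). Of the endothelial markers, CDH5 had 0 counts in all 6 libraries and VWF was at or below 0.111 CPM in each. PECAM1, also made by other cell types, was at 3.57 CPM in shCTRL and 3.43 CPM in shCCN3. Antisense genes in the annotation overlap 744 and 448 of the 7033 exon bases of ROBO4, and they were not analysed here. ROBO3 and ROBO4 are neighbours on chromosome 11, ROBO1 and ROBO2 on chromosome 3, and within each pair the values above differ. The start region of ROBO4 is printed as that of a second gene with a large rise, at chr11:124897816-124898115 on the minus strand of GRCh38.p14 from RefSeq, with the GC box in capitals.
ROBO4: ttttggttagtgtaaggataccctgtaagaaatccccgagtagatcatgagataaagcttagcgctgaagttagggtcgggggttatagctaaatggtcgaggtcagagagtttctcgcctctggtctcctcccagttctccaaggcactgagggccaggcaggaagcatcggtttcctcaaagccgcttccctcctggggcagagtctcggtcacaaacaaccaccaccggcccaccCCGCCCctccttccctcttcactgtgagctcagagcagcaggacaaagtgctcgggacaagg
This window is less GC-rich than that of EPHB1, with 55.3% G and C, 11 CpG and 1 GC box 12 bases before the start. The summed Robo level was 10.3 CPM per kilobase in shCTRL and 10.1 in shCCN3, whereas the summed Slit level was 1.54 and 3.73.

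Of the netrin genes, NTN4 and UNC5B rose, and the classical attractive pair NTN1 and DCC had few counts or none. NTN4 (Gene ID 59277, chr12:95657807-95791155), a basement membrane netrin, had 67.3, 61.0 and 50.7 CPM in shCTRL and 99.97, 79.7 and 107 CPM in shCCN3. It rose 1.598-fold (log2 fold change 0.68, SE 0.126, adjusted p = 0.00295, edgeR). Per kilobase NTN4 was, after EPHA2 and EPHB4, the most abundant of the 37 genes in shCTRL cells, at 14.3 ± 2.01 CPM, and it stood at 22.9 ± 3.35 in shCCN3 cells, above EPHB4 at 15.5 ± 0.216. UNC5B (Gene ID 219699, chr10:71212570-71302864), a repulsive netrin receptor that is also a p53 target and can trigger cell death when its ligand is missing, had 3.42, 3.20 and 3.47 CPM in shCTRL and 11.9, 8.66 and 11.5 CPM in shCCN3. It rose 3.17-fold (log2 fold change 1.66, SE 0.135, adjusted p = 2.06e-05, edgeR) and made up 98.8% and 99.4% of the summed netrin receptor level.

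The other netrin receptors were near or at 0. NEO1 had 5, 2 and 0 counts in shCTRL and 7, 0 and 5 counts in shCCN3. UNC5D had 4, 0 and 0 counts in shCTRL and 0, 2 and 0 in shCCN3, and UNC5C had 5 counts in 1 shCCN3 library only. UNC5A and DCC had no count in any library, and NTN1 had 3, 0 and 2 counts in shCCN3 and none in shCTRL. Where a library had 0 counts, a level of up to 3 counts, or 0.0435 to 0.054 CPM, remains possible.

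Members of 1 system therefore differed in size and direction. In the Slit-Robo system SLIT3 and SLIT2 rose by 1.27 and 1.48 on the log2 scale, whereas the receptor ROBO2 fell by 1.17 and ROBO4 rose by 1.67. ROBO2 held 2.26% of the summed Robo level in shCTRL and 1.02% in shCCN3, and ROBO4 held 0.970% and 3.14%. SLIT1, ROBO3 and ROBO1, the most abundant Robo, did not pass the test. Among the 26 genes tested, shCCN3 replicate 2 was the lowest library of its group for 16 (61.5%), beside 42.0% of all genes tested. Among rising genes, it was the shCCN3 library nearest to shCTRL for SLIT2, SLIT3, ROBO4, NTN4, UNC5B, EPHA4, EPHA5, EPHB1 and EFNB1. For EPHA6, EPHB2, EFNA1 and EFNB3 another shCCN3 library was nearest. Among falling genes, replicate 2 was the nearest for EFNA5 and the farthest for EPHB3, EPHB4, EPHB6 and ROBO2. All of these genes but EFNB3 passed the threshold without this library as well. The part of this library in the spread was not tested.

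A list of 51 other genes of these pathways, chosen by role, was read beside the receptors and ligands. Of them 42 were tested and 21 passed, 12 higher and 9 lower, beside 33.4% of all genes tested (16.2% higher and 17.3% lower). Their median log2 fold change was 0.11 and the median of its size was 0.23, the latter close to that of all genes. With shCTRL replicate 2 left out 13 passed, beside 4181 of all 17854 genes tested in that fit. With shCCN3 replicate 1 left out 13 passed, beside 4484 of 17818. With shCCN3 replicate 2 left out 29 passed, beside 7229 of 17837. Of the 42, 3 changed by at least 2-fold, FLRT1 (0.547 to 1.37 CPM), ABLIM1 and SRGAP3, beside 8.1% of all genes tested. By system, 11 of 19 tested Eph-ephrin genes passed (7 higher, 4 lower), 2 of 10 tested Slit-Robo genes (1 higher, 1 lower), and 8 of 13 tested netrin genes (4 higher, 4 lower), with the same 33.4% as the share over all genes.

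Of the genes with a mean of at least 1 CPM, the largest rises were those of MYO10, ANKS1A, RASA1 and TRIO. MYO10, a filopodial myosin that carries netrin receptors, had 156, 155 and 132 CPM in shCTRL and 265, 202 and 268 CPM in shCCN3 (log2 fold change 0.73, adjusted p = 0.00108, edgeR). TRIO, which acts downstream of DCC, was at 159 ± 16.8 and 232 ± 44.1 CPM (SD, n = 3 each, log2 fold change 0.54, adjusted p = 0.0134, edgeR). ANKS1A, an adaptor of Eph receptors, had a log2 fold change of 0.65 (17.9 to 28.1 CPM, adjusted p = 0.000499, edgeR). It lies on chromosome 6, whose tested genes had a median log2 fold change of 0.34. The part of the chromosome in the rise of ANKS1A was not tested. RASA1, a Ras GTPase-activating protein bound by activated EphB receptors, had 0.59 (33.2 to 50.1 CPM, adjusted p = 0.00304, edgeR). For all 4, shCCN3 replicate 2 was the lowest of its group and still above every shCTRL library.

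The largest falls were those of ABLIM1, SRGAP3, NTNG2 and PICK1. ABLIM1, an actin-binding LIM protein linked to netrin signaling by its worm counterpart, had 34.1, 34.7 and 32.1 CPM in shCTRL and 10.95, 10.1 and 11.4 CPM in shCCN3. Its log2 fold change of -1.63 (SE 0.0768, adjusted p = 8.84e-07, edgeR) was the largest of the list in size. SRGAP3, a GTPase-activating protein of the Slit-Robo pathway, had 6.71, 6.11 and 6.69 CPM in shCTRL and 3.41, 3.04 and 2.97 CPM in shCCN3, a log2 fold change of -1.05 (adjusted p = 0.000113, edgeR). Its relatives SRGAP1 and SRGAP2 did not pass. NTNG2, a membrane-anchored netrin relative that does not bind the netrin receptors, was at 19.2 ± 1.62 and 10.7 ± 1.25 CPM (log2 fold change -0.85, adjusted p = 0.000271, edgeR, n = 3 each). PICK1, a PDZ protein that binds ephrin-B and EphB tails, was at 15.5 ± 2.08 and 9.31 ± 0.891 CPM (log2 fold change -0.74, adjusted p = 0.00113, edgeR, n = 3 each).

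**Figure D4:**
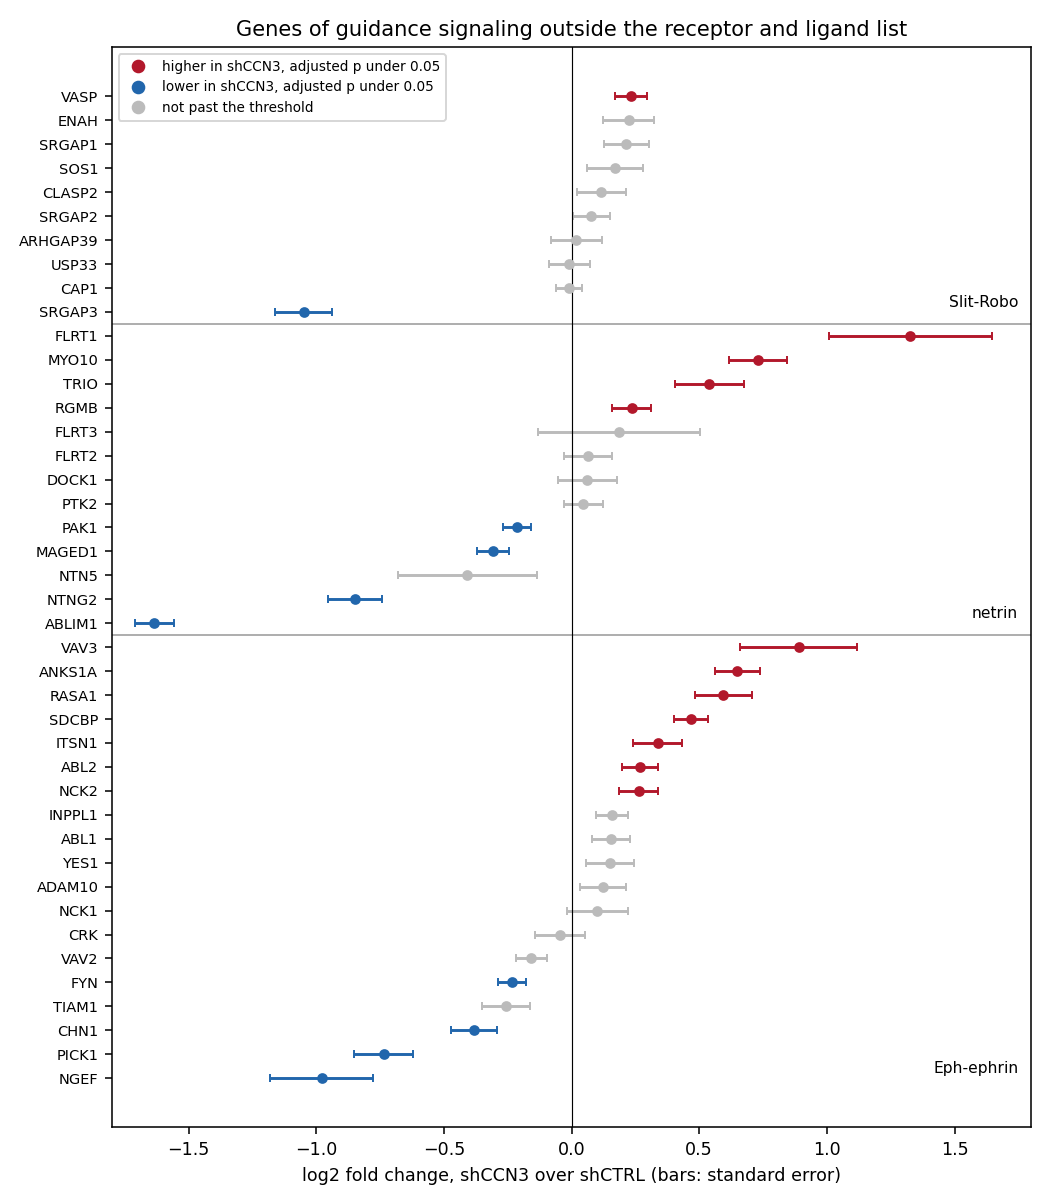
The log2 fold change, shCCN3 over shCTRL, with its standard error, of the 42 tested genes of the wider signaling list. Genes are grouped by system and ordered within it by the signed log2 fold change. Most points lie within 0.5 of 0, and ABLIM1 at -1.63, SRGAP3 at -1.05 and FLRT1 at 1.33 lie outside 1.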

How the data were processed

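The authors prepared stranded poly(A) libraries and deposited raw read counts per gene, listed by Gene ID and symbol, without normalization. The submitters' processing notes name bcl2fastq 2.20.0, Trimmomatic, HISAT2 2.1.0, StringTie 2.1.3d, DESeq2 and GRCh38. The annotation and the use of strand in counting are not given in the sources used here.

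From the counts, edgeR 4.0.16 in R 4.3.3 gave CPM on TMM-scaled library totals and, after its filter on low counts, a quasi-likelihood test of shCCN3 against shCTRL over 17419 genes, with Benjamini-Hochberg adjustment and no block. Errors are SDs of 3 libraries or standard errors, and intervals are 95% intervals from the model. Levels per kilobase used exon unions of GENCODE 29, matched for 26549 genes that held 98.3% of the counts, and no test was run on their sums. Positions and start regions came from RefSeq tables of GRCh38.p14, where 44698 Gene IDs matched. The scripts were tested on simulated data.

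The guidance genes and the list of 51 signaling genes were chosen with earlier results of these data known. All members were to be given, and of the signaling list the 4 largest rises and falls with an adjusted p under 0.05 and a mean of at least 1 CPM. FLRT1 was named after its values were seen. Start regions were printed for the genes with 1 RefSeq start and the largest changes, 2 in each direction, and for EPHA6. Alternatives were other normalizations, filters and tools (DESeq2 1.42.0, limma-voom with limma 3.58.1), a replicate block and each library left out in turn.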

Additional observations from a re-analysis of the deposited data

How the results depend on the processing

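Of the 18 guidance genes past the threshold, 16 were past it in every alternative that gave a value. The exceptions were EFNA1, whose log2 fold change was 0.23 to 0.36 with a library left out, and EFNB3, which also missed the threshold in the replicate block (adjusted p = 0.0954, edgeR). EFNA4 passed with DESeq2 (adjusted p = 0.0433) and limma-voom (0.0476). EPHA6 was not tested when 10 counts were required in every library. With a library left out, the log2 fold change changed sign for 4 genes that were not called: EPHA2 (-0.0518 to 0.0374), EFNA3 (-0.103 to 0.170), EFNB2 (-0.134 to 0.0398) and ROBO1 (-0.213 to 0.024). The guidance genes past the threshold numbered 16 to 18 with a library left out and 17 to 18 otherwise, and the signaling genes 13 to 29 and 15 to 21. Over all genes the range was 4181 to 7229 and 4887 to 5966. For samples with the same replicate number, deviations from the group mean had correlations of 0.149, -0.0726 and -0.259. Whether the numbers mark a shared batch is not stated. Deviations within a group of 3 libraries depend on each other, so these values cannot decide it. The replicate block left 4887 genes, 17 guidance genes and 15 signaling genes past the threshold. The 11 genes that were not tested had few counts or none, and SLIT1 and EPHA3 were tested on low counts.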

Other observations

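UNC5B-AS1, annotated beside UNC5B, had 0 counts in the 3 shCTRL libraries and 7, 9 and 4 counts in the shCCN3 libraries, too few to be tested. EPHA1-AS1 had 1 count in 1 library, and SLIT3-AS1 and SLIT3-AS2 had none.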
